A study of Mus musculus with 20 samples.

Results

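A set of 10 genes that mark macrophages and monocytes was followed in RNA-seq of mouse tibia, chosen by symbol from the 54446 genes of the deposited table. The members were the general macrophage genes Cd68 and Adgre1, the scavenger and clearance receptors Cd163, Mrc1, Mertk and Marco, the complement C1q chains C1qa, C1qb and C1qc, and the classical monocyte gene Ly6c2. All 10 symbols were found, each for 1 gene identifier. The question was whether receptors that steroids induce in cultured macrophages moved apart from general macrophage genes after treatment with the glucocorticoid dexamethasone (DEX).

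The mice were male C57BL/6J, 3 months old, and were given DEX under the skin at 1 mg/kg, or water as the vehicle, in 5 injections. One tibia of each mouse was axially loaded and the other was not, which gave 4 groups of 5 libraries: unloaded vehicle, loaded vehicle, unloaded DEX and loaded DEX. The sample labels describe 2 loading sessions and the methods describe 3. The labels give the sample as tibia, the study speaks of cortical bone with its periosteum, and RNA was taken from frozen, crushed bone with no sorting of cells. A step that removed marrow from these samples is not given in the sources used here. The study removed a data set called DEX-4 without saying from which limb. It was taken to be unloaded DEX replicate 4, an inference from the 4 unloaded and 5 loaded DEX values that the study plots, so the tests used 19 libraries. Levels are counts scaled to library size (CPM) and comparisons are log2 fold changes (log2FC) with a standard error (SE) and an adjusted p from edgeR, called when under 0.05.

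Macrophages of the marrow engulf dying cells and the nuclei shed by red cell precursors, and some settle at the centre of erythroblastic islands. Adgre1 encodes F4/80 and Cd68 an endosomal glycoprotein, and both are carried by most mouse macrophages. Cd163 takes up haemoglobin bound to haptoglobin, Mrc1 is the mannose receptor, and Mertk is the kinase receptor through which apoptotic cells are cleared. In cultured macrophages, glucocorticoids are known to raise Cd163, Mrc1 and Mertk. C1q, made largely by macrophages, starts the classical complement pathway and also coats dying cells. Ly6c2 encodes a surface protein of classical monocytes, which leave the marrow and can become macrophages.

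Library totals ran from 4641437 to 13032018 counts, and 9 of the 10 members had 114 to 2231 counts in every library. Marco, a scavenger receptor of marginal zone and alveolar macrophages, had 1 to 21 counts per library, with sums of 37 counts in unloaded vehicle, 46 in loaded vehicle, 17 in the 4 unloaded DEX and 39 in loaded DEX tibiae. It passed the filter on low counts in the test over all 4 groups but in none of the tests between pairs of groups, and it was not called in any alternative fit that kept it. A change of moderate size in Marco would not be detectable at this depth. Loaded DEX replicate 4 stood apart with the lowest total. It also had the highest signal from olfactory and vomeronasal receptor genes, which belong to sensory neurons and served as a measure of background reads. That signal ran from 351 to 1254 CPM in unloaded vehicle, 237 to 844 in loaded vehicle, 727 to 2676 in unloaded DEX and 1002 to 5949 in loaded DEX libraries.

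Levels can be compared between genes only per length, as CPM per kilobase of annotated exon. On that scale, the unloaded vehicle order ran from C1qb at 43.9 ± 8.0 and C1qa at 38.2 ± 12.3 through Cd68 at 31.8 ± 2.76 and C1qc at 28.7 ± 1.87 (SD, n = 5). Mrc1 followed at 21.5 ± 3.89, Ly6c2 at 17.0 ± 3.90, Mertk at 12.9 ± 2.66, Adgre1 at 10.3 ± 1.5 and Cd163 at 9.01 ± 2.99, with Marco last at 0.434 ± 0.455 (SD, n = 5). The ranges of neighbours in this order overlapped, except between C1qc and Mrc1 and between Cd163 and Marco. In unloaded DEX tibiae, Ly6c2 ranked just below C1qb at 38.6 ± 12.2 CPM per kilobase (SD, n = 4), above Cd68. The C1q chains lie side by side on chromosome 4, all on the minus strand, with C1qb at 136880129 to 136886187, C1qc at 136889804 to 136893065 and C1qa at 136895917 to 136898803 (GRCm38, GENCODE M21).

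The promoters of 4 members are shown, 1 each for the scavenger receptors, the monocyte gene, the general macrophage genes and the C1q chains. The RefSeq table (GRCm38.p6) held promoters for 8 of the 10 members, and each sequence is the 250 bases before the start site, read 5′ to 3′ in the direction of the gene. Ly6c2 had 2 listed starts, of which the first is shown. Cd163 is at chr6:124304401-124304650 on the plus strand, and Ly6c2 at chr15:75111972-75112221, Cd68 at chr11:69666171-69666420 and C1qb at chr4:136886201-136886450 are on the minus strand. Capitals mark matches, on either strand, to the glucocorticoid receptor motif AGAACA or to GAGGAA, the core bound by PU.1, the lineage factor of macrophages.
Cd163: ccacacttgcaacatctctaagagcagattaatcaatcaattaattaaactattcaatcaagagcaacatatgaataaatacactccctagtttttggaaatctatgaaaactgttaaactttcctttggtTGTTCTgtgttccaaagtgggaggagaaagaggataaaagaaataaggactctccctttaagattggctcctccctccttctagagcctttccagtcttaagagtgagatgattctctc
Ly6c2: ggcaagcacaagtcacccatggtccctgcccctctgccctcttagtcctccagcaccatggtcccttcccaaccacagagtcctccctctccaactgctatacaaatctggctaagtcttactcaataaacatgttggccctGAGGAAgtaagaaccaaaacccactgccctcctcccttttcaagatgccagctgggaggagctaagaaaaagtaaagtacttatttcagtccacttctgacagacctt
Cd68: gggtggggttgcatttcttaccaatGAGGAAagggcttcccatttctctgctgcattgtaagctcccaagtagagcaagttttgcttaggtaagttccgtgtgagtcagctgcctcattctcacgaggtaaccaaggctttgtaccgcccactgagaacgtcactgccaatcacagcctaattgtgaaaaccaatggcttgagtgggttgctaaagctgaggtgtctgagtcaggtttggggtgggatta
C1qb: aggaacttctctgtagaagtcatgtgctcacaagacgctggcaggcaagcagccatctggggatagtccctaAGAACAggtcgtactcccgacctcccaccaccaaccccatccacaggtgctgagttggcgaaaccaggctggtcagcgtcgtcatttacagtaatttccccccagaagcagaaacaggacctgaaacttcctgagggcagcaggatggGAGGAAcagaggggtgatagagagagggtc

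In Cd163 the receptor motif begins 119 bases before the start site and is read as its reverse complement. The receptor motif was found in 3 of the 8 members with a promoter (Cd163, C1qb and C1qc), against 16.1% of the 32851 windows of this length in the table. The PU.1-type core was found in 6 of the 8, against 23.3% of the windows. The full palindrome, made of the receptor motif, 3 bases and its reverse complement, was in no member and in 0.00913% of the windows. These matches describe letters in a short window only.

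**Figure D1:**
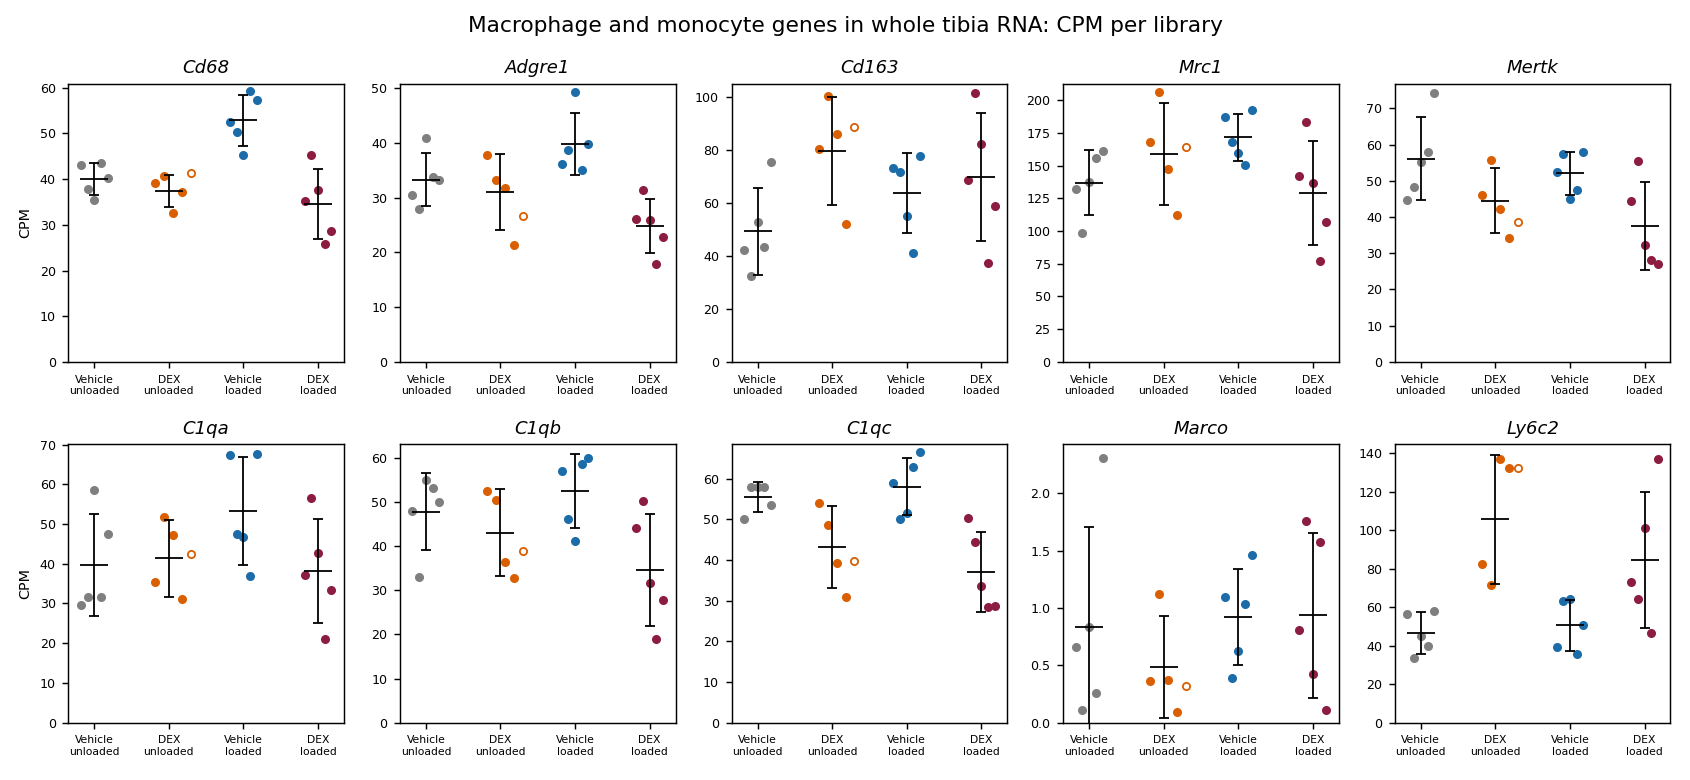
Level of each of the 10 members in every library, in CPM on a linear axis from 0. Filled points are the 19 libraries of the tests, the bar and whiskers are the mean and SD of each group, and the open point is unloaded DEX replicate 4. Ly6c2 is higher in the unloaded DEX libraries than in any unloaded vehicle library, and Adgre1 is lower in the loaded DEX libraries than in any loaded vehicle library.

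Without loading, DEX left the general macrophage genes near their vehicle level and raised the monocyte gene. Of 9 members tested, Ly6c2 alone was called, higher by 2.31-fold. That is 1 member of 9 called higher, where 2.86% of all 19738 genes tested and 3.98% of the upper tertile by expression were called higher. None was called lower, where 3.99% of all genes and 7.05% of the upper tertile were. All 9 lay in the upper tertile. Because the libraries are bulk RNA, fewer cells of a type and less RNA per cell cannot be told apart.

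Ly6c2 (chromosome 15, 75108158 to 75111970, minus strand) had 56.6, 33.5, 44.9, 39.7 and 58.2 CPM in unloaded vehicle tibiae. In unloaded DEX tibiae it had 82.3, 71.6, 137 and 132 CPM. The groups did not overlap, as in 10.8% of all genes tested here. Within the DEX group, replicates 3 and 5 were well above replicates 1 and 2. The log2FC was 1.21 (SE 0.229, edgeR adjusted p = 0.0141). The call was lost without DEX replicate 3 (edgeR adjusted p = 0.0682), in a fit that called 0.633% of all genes. Ly6c2 has a near-identical neighbour, Ly6c1, and the expected counts of Ly6c2 were not whole in 19 of 20 libraries, so its level is uncertain. Which genes its reads were shared with was not tested. Ly6c1 itself had 8.60 to 30.2 CPM over the 20 libraries. In an alternative added once the data had been seen, the counts of both genes were summed and the log2FC was 0.93 (SE 0.187, edgeR adjusted p = 0.0166).

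Cd163 (chromosome 6, 124304656 to 124330527, plus strand) had 42.2, 32.3, 52.7, 43.4 and 75.4 CPM in unloaded vehicle tibiae and 80.5, 100.1, 86.0 and 51.9 CPM in unloaded DEX tibiae. In the DEX group 3 of the 4 libraries lay above every vehicle library, and DEX replicate 5 lay within the vehicle range. Its log2FC was 0.71, a fold of 1.63 (SE 0.228, edgeR adjusted p = 0.0831), which did not pass the threshold. With the DESeq2 Wald test, which called 2 members and 12.0% of all genes, it passed (adjusted p = 0.0439). With unloaded DEX replicate 4 kept, edgeR called it at a log2FC of 0.74 (adjusted p = 0.0357) and called 15.2% of all genes, and without the unnumbered vehicle library, the highest of its group at 75.4 CPM, edgeR also called it (adjusted p = 0.0181), along with 9.60% of all genes.

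The other receptors moved less. Mrc1 (chromosome 2, 14229392 to 14332057) ran from 98.2 to 161.1 CPM with vehicle and from 112 to 206 CPM with DEX, a log2FC of 0.22 (SE 0.179, edgeR adjusted p = 0.462). Mertk (chromosome 2, 128698956 to 128802894) ran from 44.7 to 74.4 and from 34.2 to 55.8 CPM, a log2FC of -0.32 (SE 0.169, edgeR adjusted p = 0.264). An antisense gene, Gm14011, lies within Mertk on the opposite strand, and the use of strand in counting is not given in the sources used here. Neither receptor was called and both pairs of ranges overlapped.

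Cd68 (chromosome 11, 69664213 to 69666153) was close to level, at 43.1, 37.8, 35.4, 43.5 and 40.3 CPM with vehicle and 39.2, 40.7, 32.5 and 37.2 CPM with DEX. Its log2FC was -0.08 (SE 0.118, edgeR adjusted p = 0.697). Adgre1 (chromosome 17, 57358691 to 57483527) had 30.5, 28, 40.9, 33.7 and 33.2 CPM with vehicle and 37.8, 33.2, 31.9 and 21.4 CPM with DEX, a log2FC of -0.09 (SE 0.158, edgeR adjusted p = 0.750). The groups overlapped for both genes. The C1q chains gave log2FCs of 0.07 for C1qa, -0.14 for C1qb and -0.36 for C1qc (SE 0.222, 0.171 and 0.146), none called. The median log2FC of the 9 members was -0.08, beside -0.07 over the upper tertile of all genes.

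In loaded tibiae, the general macrophage genes were lower with DEX and Ly6c2 was again higher. Cd68, Adgre1 and C1qc were called lower, which is 3 of 9 members, where 8.35% of all 19780 genes tested and 16.0% of the upper tertile were called lower. Ly6c2 was the 1 member called higher, where 12.9% of all genes and 2.74% of the upper tertile were. The median log2FC of the members was -0.44, beside -0.20 over the upper tertile and 0.00402 over all genes tested. DESeq2 called 4 members and 28.6% of all genes. Without loaded DEX replicate 4, the library with most background reads, edgeR called the same 4 members and 15.2% of all genes.

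Adgre1 had 36.1, 38.7, 49.3, 35.0 and 39.8 CPM in loaded vehicle tibiae and 26.0, 31.5, 26.0, 18.0 and 22.8 CPM in loaded DEX tibiae. The groups did not overlap, as in 16.5% of all genes tested here. Its log2FC was -0.63, a fold of 0.644 (SE 0.146, edgeR adjusted p = 0.0130). Cd68 had 52.5, 50.2, 45.2, 59.2 and 57.3 CPM with vehicle and 35.3, 45.3, 37.6, 25.8 and 28.6 CPM with DEX. Only DEX replicate 2, at 45.3 CPM, reached the lowest vehicle library, at 45.2 CPM. The log2FC of Cd68 was -0.57 (SE 0.149, edgeR adjusted p = 0.0198). Both genes were called in each of the 10 fits that left out 1 library. Both calls were lost in the 8 libraries whose numbers the groups share, with an edgeR adjusted p of 0.0551 for Adgre1 and 0.0707 for Cd68. They were also lost in the same libraries with the replicate number as a block, at 0.0577 and 0.0569. These fits called 5.65% and 11.7% of all genes in that order, against 21.3% in the main fit.

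C1qc had 58.9, 50.2, 51.6, 62.9 and 66.5 CPM with vehicle and 50.3, 44.4, 33.7, 28.5 and 28.7 CPM with DEX, with an overlap of DEX replicate 1 and vehicle replicate 2. Its log2FC was -0.60 (SE 0.166, edgeR adjusted p = 0.0243), and the call was lost in 5 of 19 alternatives. Among them were the fit without DEX replicate 3 (edgeR adjusted p = 0.0533) and the fit with at least 10 counts in every library. These 2 fits called 17.7% and 14.3% of all genes. Neither C1qb, with a log2FC of -0.57 (SE 0.219, edgeR adjusted p = 0.0792), nor C1qa, at -0.44 (SE 0.227, edgeR adjusted p = 0.176), was called. C1qb ran from 41.2 to 59.9 CPM with vehicle and from 18.9 to 50.3 CPM with DEX. C1qa ran from 37.0 to 67.7 and from 20.9 to 56.6 CPM. The products of these 3 genes assemble into 1 protein, and their levels overlapped between groups in each case.

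The receptors known as steroid-induced were not called in loaded tibiae. Cd163 had 73.1, 71.6, 55.2, 41.0 and 77.5 CPM with vehicle and 68.7, 101.5, 82.1, 37.3 and 58.9 CPM with DEX. The ranges overlapped, with DEX replicates 2 and 3 above and replicate 4 below every vehicle library, and the log2FC was 0.17 (SE 0.231, edgeR adjusted p = 0.605). Mrc1 ran from 151 to 192 CPM with vehicle and from 76.8 to 183 CPM with DEX, a log2FC of -0.37 (SE 0.190, edgeR adjusted p = 0.174). For Mertk the ranges were 45.1 to 58.0 and 27.1 to 55.5 CPM, and the log2FC was -0.43 (SE 0.183, edgeR adjusted p = 0.105).

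Ly6c2 had 39.4, 63.2, 64.3, 35.4 and 50.8 CPM in loaded vehicle tibiae and 73.1, 64.5, 101.3, 46.5 and 136.7 CPM in loaded DEX tibiae. In the DEX group 4 of the 5 libraries lay above every vehicle library, and replicate 4 lay within the vehicle range. The log2FC was 0.79 (SE 0.261, edgeR adjusted p = 0.0480), and the call held in 3 of the 10 fits that left out 1 library, those without DEX replicate 2, DEX replicate 4 or vehicle replicate 4. In the other fits the edgeR adjusted p ran from 0.0648 to 0.120. The call was also lost with no filter except 1 count in total, where Adgre1, C1qb, C1qc and Cd68 and 20.2% of all genes were called.

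Without loaded DEX replicate 2, the highest DEX library for Cd68, Adgre1, Cd163, Mrc1, Mertk, C1qa and C1qb, 8 members and 28% of all genes were called. Without loaded DEX replicate 3, Adgre1, Cd68 and 17.7% of all genes were. Background reads did not overlap between the loaded groups, so they cannot be told apart from treatment. With them as a covariate no member and 0.147% of all genes were called, and the log2FC was -0.50 for Adgre1 (SE 0.234, edgeR adjusted p = 0.416), -0.32 for Cd68 (edgeR adjusted p = 0.628) and 1.10 for Cd163 (SE 0.238, edgeR adjusted p = 0.0824).

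**Figure D2:**
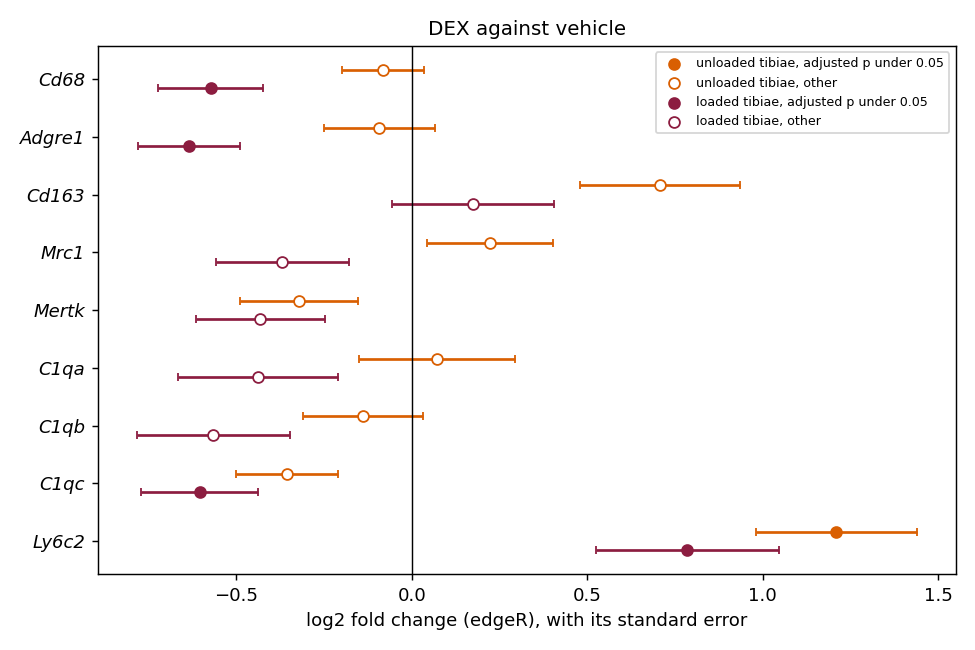
DEX against vehicle for the 9 tested members, as log2 fold change on the horizontal axis with its standard error, in unloaded and in loaded tibiae. Filled points passed the edgeR threshold. Ly6c2 is at 1.21 and 0.79, whereas Adgre1 is at -0.09 and -0.63 and Cd163 at 0.71 and 0.17.

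To ask whether any member moved apart from a general macrophage gene, each gene was divided by Adgre1 of the same library and its log2 ratio was tested with limma. Ly6c2 rose relative to Adgre1 in both limbs, Cd163 passed in loaded tibiae only, and the difference between limbs was not called for either. In counts of Cd163 per count of Adgre1, unloaded vehicle libraries gave 1.38, 1.16, 1.29, 1.29 and 2.27. Unloaded DEX libraries gave 2.13, 3.01, 2.7 and 2.43. The unnumbered vehicle library overlapped the DEX range, and the other 4 lay below it. The difference in log2 ratio was 0.83 (SE 0.241, limma adjusted p = 0.0701), which did not pass, while Ly6c2 passed at 1.27 (SE 0.297, limma adjusted p = 0.0267). Ly6c2 was thus 1 of 8 members called higher relative to Adgre1, where 0.942% of all genes and 1.08% of the upper tertile were. Its counts per count of Adgre1 ran from 1.10 to 1.86 with vehicle and from 2.16 to 6.19 with DEX, without overlap, as in 5.60% of all genes and 4.70% of the upper tertile.

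The unloaded ratio depended on single libraries. Cd163 passed when DEX replicate 1, DEX replicate 5 or the unnumbered vehicle library was left out, with a lowest limma adjusted p of 0.0225. Ly6c2 was lost without DEX replicate 3, vehicle replicate 4 or vehicle replicate 5, with a highest limma adjusted p of 0.130.

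In loaded tibiae, counts of Cd163 per count of Adgre1 were 2.03, 1.85, 1.12, 1.17 and 1.95 with vehicle and 2.64, 3.23, 3.16, 2.08 and 2.59 with DEX. These groups did not overlap, as in 31.6% of all genes and 27.8% of the upper tertile. The difference in log2 ratio was 0.78 (SE 0.197, limma adjusted p = 0.00456), and it was 1.37 for Ly6c2 (SE 0.234, limma adjusted p = 0.000708). However, Adgre1 was itself lower there, and 57.3% of all genes and 50.7% of the upper tertile were called higher relative to it. The median difference in log2 ratio was 0.64 over all genes and 0.43 over the upper tertile there. In unloaded tibiae these medians were 0.14 and 0.0349, beside 0.83 for Cd163.

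Mrc1 and Mertk, the other receptors of the steroid-induced group, did not pass relative to Adgre1. For Mrc1 the difference in log2 ratio was 0.32 (SE 0.232) without load and 0.23 (SE 0.163) with load. For Mertk it was -0.21 (SE 0.228) and 0.17 (SE 0.181). Cd68 and the C1q chains lay between -0.27 and 0.20 in both limbs. With Csf1r, the receptor for the macrophage growth factor, as denominator, the difference for Cd163 was 0.46 (SE 0.211, limma adjusted p = 0.190) in unloaded and 0.57 (SE 0.195, limma adjusted p = 0.0410) in loaded tibiae. That loaded fit called 27.7% of all 19779 genes, 5066 higher and 405 lower relative to Csf1r. The difference between limbs was not called for any of 9 members (0.943% of all genes were called higher), and it was -0.05 for Cd163 (SE 0.301, limma adjusted p = 0.908).

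**Figure D3:**
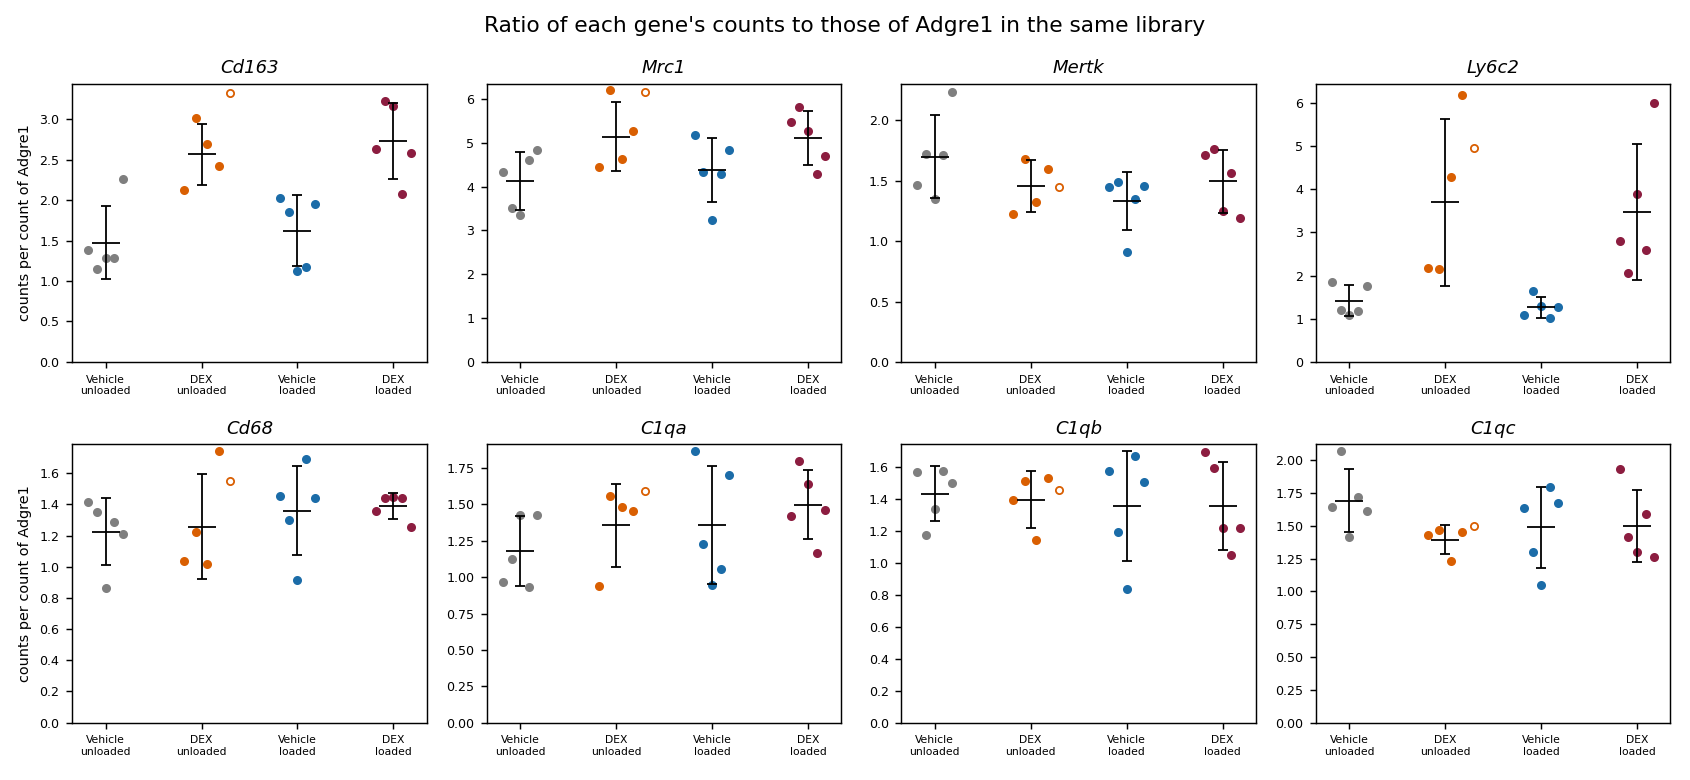
Counts of 8 members per count of Adgre1 in the same library, on linear axes from 0, with the mean and SD of each group. Filled points are the 19 libraries of the tests and the open point is unloaded DEX replicate 4. For Cd163, the 5 loaded DEX libraries lie between 2.08 and 3.23, above the loaded vehicle libraries at 1.12 to 2.03, a separation shared by 31.6% of all genes, whereas the groups overlap for Mrc1 and Mertk.

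Loading alone did not give a call for any member. In vehicle-treated mice, none of 9 members and 0% of the 17982 genes tested passed edgeR, and 2 members and 1773 of all genes had an unadjusted p under 0.05. DESeq2 called no member and 0.795% of all genes. Of the 9, 8 had a positive log2FC, beside 55.7% of the upper tertile of all genes. Cd68 was the member whose groups did not overlap, as in 1.33% of all genes, with a log2FC of 0.37 (SE 0.108, edgeR adjusted p = 0.340). Mrc1, the other member with an unadjusted p under 0.05, had 0.30 (SE 0.123, edgeR adjusted p = 0.478), and Mertk had -0.14 (SE 0.128).

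In DEX-treated mice, 0% of 22541 genes and no member passed edgeR, no member had an unadjusted p under 0.05, and DESeq2 called no member and 0% of all genes. All 9 log2FCs were negative, where 16.7% of the upper tertile were positive, and they ran from -0.34 for Ly6c2 to -0.13 for C1qa. No member had groups that did not overlap, against 1.25% of all genes.

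Whether the response to loading differed between treatments was tested by an interaction term, and 0% of 23653 genes passed edgeR. It was negative for 9 of 10 members, where 24.4% of the upper tertile were positive, and the exception was Marco, whose low counts give no usable estimate (SE 1.08). The interaction was -0.57 for Adgre1 (SE 0.227, edgeR adjusted p = 0.392), -0.52 for Cd68 (SE 0.204, edgeR adjusted p = 0.392) and -0.62 for Mrc1 (SE 0.286, edgeR adjusted p = 0.410). These 3 members, and 2859 of all genes, had an unadjusted p under 0.05. DESeq2 called no member and 0.211% of all genes.

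**Figure D4:**
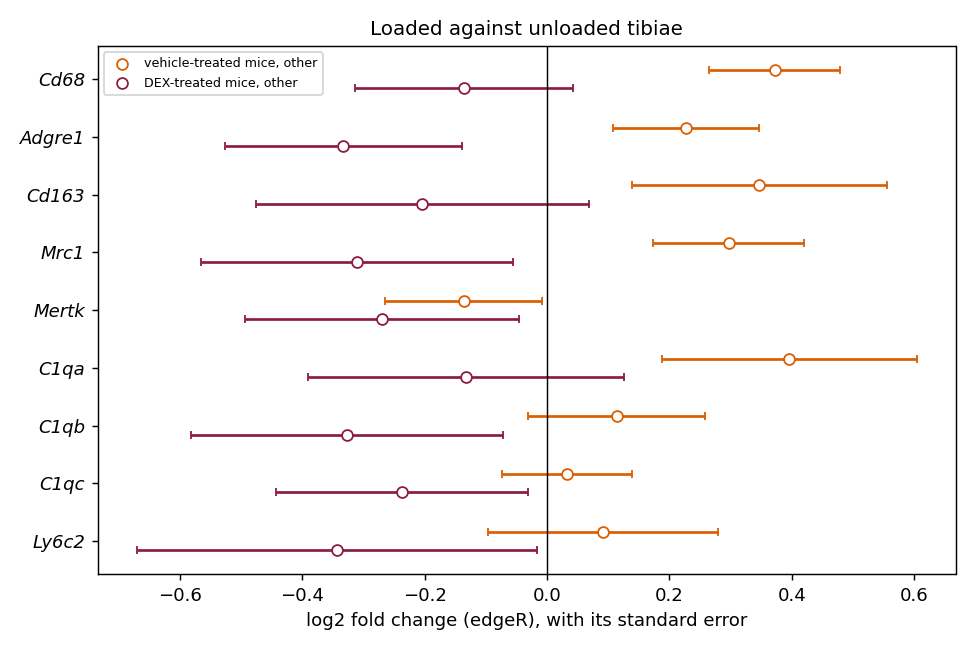
Loaded against unloaded tibiae for the 9 tested members, as log2 fold change with its standard error, in vehicle-treated and in DEX-treated mice. No point passed the edgeR threshold. Cd68 is at 0.37 with vehicle and -0.14 with DEX, and all 9 DEX values lie below 0.

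Other genes of the same cells were read from lists, and their counts stand beside the shares of all genes called with DEX: 2.86% higher and 3.99% lower without load, and 12.9% higher and 8.35% lower with load (2.74% and 16.0% in the upper tertile). Of 14 further macrophage identity genes, 3 were called higher with DEX without load and none lower, and in loaded tibiae none was called higher and 1 lower. Their median log2FC was 0.27 without load, with 12 positive, and -0.08 with load, with 6 positive, against -0.09 and -0.63 for Adgre1. Itgam, an integrin chain also carried by neutrophils and monocytes, was called higher without load, with a log2FC of 1.2 (SE 0.294, edgeR adjusted p = 0.0324). So was lysozyme, Lyz2, at 1.05 (SE 0.266, edgeR adjusted p = 0.0365). Aif1, an actin-binding protein of macrophages, was called lower with load, at -0.82 (SE 0.208, edgeR adjusted p = 0.0178). Csf1r ran from 78.7 to 141 CPM in unloaded vehicle and from 133 to 149 CPM in unloaded DEX tibiae, a log2FC of 0.23 (SE 0.158, edgeR adjusted p = 0.380). In loaded tibiae its log2FC was -0.41 (SE 0.164, edgeR adjusted p = 0.0909).

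None of the genes of erythroblastic islands and iron recycling was called, with 9 of 10 tested without load and all 10 with load. Their median log2FC was -0.08 and -0.29. Of 15 other scavenger and clearance genes, 1 was called higher and 1 lower without load, and 2 lower with load. Msr1, a class A scavenger receptor, had 4.73 to 8.38 CPM in unloaded vehicle and 10.9 to 13.9 CPM in unloaded DEX tibiae, with no overlap, as in 10.8% of all genes, and a log2FC of 0.99 (SE 0.207, edgeR adjusted p = 0.0195). In loaded tibiae its ranges were 7.5 to 14.6 and 9.19 to 14.5 CPM, and its log2FC was 0.09 (SE 0.204, edgeR adjusted p = 0.771). Colec12 and Pros1, a scavenger receptor of vessels and a bridging ligand of Mertk, were called lower with load, at -0.72 (SE 0.191) and -0.66 (SE 0.152; edgeR adjusted p = 0.0214 and 0.0134).

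Of 10 further monocyte genes, 5 were called higher with DEX without load and 4 with load, and none lower, with a median log2FC of 0.72 and 0.39. Chil3, a chitinase-like protein of monocytes and neutrophil precursors, had 197 to 422 CPM in unloaded vehicle and 856 to 1997 CPM in unloaded DEX tibiae, a log2FC of 2.37 (SE 0.302, edgeR adjusted p = 0.00386). F13a1, a coagulation factor chain made by monocytes and macrophages, had a log2FC of 1.5 (SE 0.214, edgeR adjusted p = 0.00603). Ms4a3, a gene of granulocyte and monocyte precursors, had 1.14 (SE 0.213, edgeR adjusted p = 0.0139). All 3 were also called in loaded tibiae, at 2.00, 0.82 and 1.00.

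Neutrophil genes were also higher with DEX, with 8 of 10 called higher without load and 9 with load. Their summed level ran from 4996 to 7237 CPM in unloaded vehicle and from 9074 to 16373 CPM in unloaded DEX tibiae, and from 4286 to 6338 and 7256 to 17307 CPM in loaded tibiae. None of the 10 was at 0 in any group. The part of these cells in the Ly6c2 result was not tested. The 3 genes whose pattern over the 20 libraries was nearest to that of Ly6c2 were Mgam, Prom1 and Ctsg, the last a granule protease of neutrophil and monocyte precursors. The root mean square difference in centred log2 CPM was 0.12, 0.14 and 0.15, beside a median of 0.73 over 12966 genes. For Cd163 the nearest were Slc43a2, Klf13 and A130014A01Rik at 0.19, 0.24 and 0.25, beside a median of 0.54.

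Of 10 other genes of the classical complement pathway, 2 were called higher without load, and in loaded tibiae 1 was called higher and 3 lower. C5ar1, the receptor for the C5a fragment and abundant on neutrophils, was called in both, at 1.46 (SE 0.186, edgeR adjusted p = 0.00386) and 1.24 (SE 0.207, edgeR adjusted p = 0.00303). C3, the central component, was called without load, at 1.21 (SE 0.267, edgeR adjusted p = 0.0228), and had 0.57 with load (SE 0.261, edgeR adjusted p = 0.131). Itgax, a chain of complement receptor 4, was called lower with load at -0.98 (SE 0.260, edgeR adjusted p = 0.0216).

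Among 8 genes that glucocorticoids induce in many tissues, none was called higher and 2 lower without load, and 2 were called higher and 1 lower with load. Fkbp5, a chaperone of the steroid receptor, had 47.3 to 107.6 CPM in unloaded vehicle and 89.1 to 164 CPM in unloaded DEX tibiae, a log2FC of 0.81 (SE 0.236, edgeR adjusted p = 0.0603). In loaded tibiae it was called, at 0.87 (SE 0.175, edgeR adjusted p = 0.00777), with 59.7 to 114.7 and 113 to 152 CPM. Zbtb16, a zinc finger repressor, was called in loaded tibiae at 1.01 (SE 0.213, edgeR adjusted p = 0.00930), and Cdkn1a, a cell cycle inhibitor, was called lower in both, at -0.96 and -0.87.

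Other cell types were read in the same way. B cell genes were called lower in 5 of 10 without load and 9 of 10 with load. Osteoblast and osteocyte genes were called lower in 5 of 10 and 8 of 10. Of 9 osteoclast genes, which are of macrophage origin, 1 was called higher without load and 2 lower with load. The remaining lists had at most 2 calls in either limb: endothelial cells 1 lower in both, erythroid cells 0 and 1 lower, dendritic cells 0 and 2 higher, and skeletal muscle 0 and 1 higher. All 10 skeletal muscle genes had a negative log2FC without load, with a median of -1.71, and all 10 a positive one with load, with a median of 0.50. They summed to 2633 to 38583 CPM in the 19 libraries, so muscle RNA varied widely between the bone samples. The part of these cell types in the changes of Cd68, Adgre1 and C1qc was not tested.

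**Figure D5:**
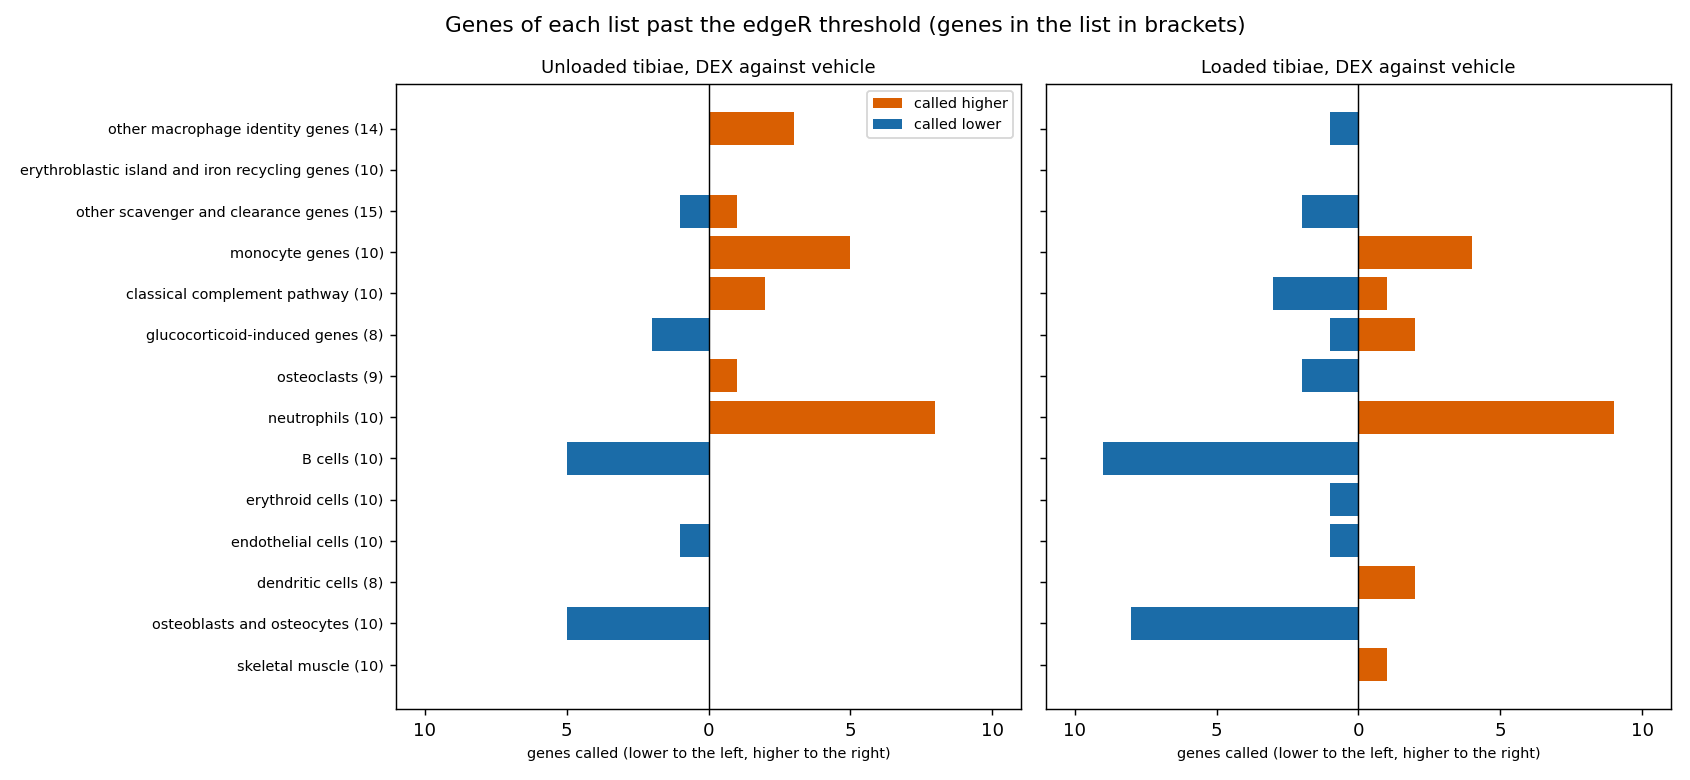
Number of genes of each list called higher (to the right) or lower (to the left) with DEX by edgeR, in unloaded and in loaded tibiae, with the size of the list in brackets. Neutrophil genes give 8 and 9 calls higher, monocyte genes 5 and 4 higher, and B cell genes 5 and 9 lower, whereas erythroblastic island genes give none.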

How the data were processed

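RNA-seq was performed in 20 mouse tibia libraries. The authors deposited expected counts per gene, which the submitters' processing notes credit to RSEM 1.2.28 after STAR 2.7.10a on GRCm38. The deposited expected counts were not scaled for library size and were rounded to whole numbers here. The 10 members, the other lists and these tests were chosen with earlier results of these data known. Genes were kept with filterByExpr, scaled with TMM and tested with edgeR 4.0.16 (quasi-likelihood F test, Benjamini-Hochberg over all genes, threshold 0.05) in R 4.3.3. Ratios to Adgre1 were tested over all genes with limma 3.58.1 (trend, log2 CPM with a prior count of 2). Alternatives were DESeq2 1.42.0, other filters, prior counts and denominators, background reads as a covariate, a replicate block, other sets of libraries and leaving out each library. The methods were tested on simulated data.

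The named genes are all 10 members, Csf1r, up to 3 called genes per list with the largest change in either DEX comparison, and the 3 genes nearest in pattern among those with at least 5 CPM on average. Symbols and positions come from GENCODE M21, which matched 54409 identifiers. Background reads are CPM summed over 1459 receptor genes. The vehicle libraries are numbered 1, 2, 4 and 5, and 1 column per group carries a number that no label holds, so it could be matched to its group only (called unnumbered). The study describes the libraries of a group as different mice and the unloaded tibia as the internal control of each mouse, but no source used here says that a replicate number marks a mouse. Library totals of 4641437 to 13032018 counts limit precision by counting error only. Standard errors are the absolute log2FC over the square root of F.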

Additional observations from a re-analysis of the deposited data

Results flagged for a closer look

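Unloaded DEX replicate 4, which was left out of all tests, had higher levels than every unloaded vehicle library for 3 of 9 members, as for 22.3% of all genes tested. Ly6c2 read 132 CPM in it, against 33.5 to 58.2 CPM with vehicle. Cd163 read 88.8 CPM, against 32.3 to 75.4 CPM. Mrc1 read 164 CPM, against 98.2 to 161.1 CPM. It lay below every unloaded vehicle library for 3 other members, as for 24.3% of all genes, with Adgre1 at 26.7 CPM, Mertk at 38.6 CPM and C1qc at 39.9 CPM. With this library included, Ly6c2 and Cd163 were both called in unloaded tibiae, Cd163 with a log2FC of 0.74 (edgeR adjusted p = 0.0357), in a fit that called 15.2% of all genes, against 6.84% without it. No library lay far enough from its group to stand out for any member, over 40 groups of values tested.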

How the results depend on the processing

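Of 732 values for single genes under alternatives, 661 kept their direction and their side of the threshold, 27 lost a call, 17 gained one and 27 changed sign. Of 159 counts of called members, 139 stayed within 1.5 times. In unloaded tibiae the count of 1 became 2, with Cd163 added, under DESeq2, with all libraries, with the background covariate and with only the libraries whose numbers both groups share. These fits called 12.0%, 15.2%, 13.5% and 2.86% of all genes in that order, against 6.84%. With single libraries left out the count ran from 0 (without DEX replicate 3, where 0.633% of all genes were called) to 2 (without the unnumbered vehicle library, 9.60%). In loaded tibiae the count of 4 became 0 with the background covariate, 0 with the replicate block and 0 with the shared-number libraries without the block. The last was an alternative added after seeing the data. These fits called 0.147%, 11.7% and 5.65% of all genes in that order, against 21.3%. With each library left out in turn the count ran from 2 to 8, in fits that called 12.75% to 28.03% of all genes. The ratio to Adgre1 in unloaded tibiae had 1 call, 2 with at least 10 counts in every library, 2 with all libraries, 0 with the replicate block, and 0 to 2 with libraries left out. The first 4 of these fits called 2.17%, 4.24%, 7.32% and 1.32% of all genes in that order. Those with libraries left out called 0.56% to 4.29%. In loaded tibiae the ratio kept 2 calls under every alternative run, in fits that called 27.7% to 64.9% of all genes. No member was called for loading or the interaction under any alternative run.

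Both tibiae of a mouse were used, but whether equal numbers mark the same mouse is not given in the sources used here, and the pairing was not established. Same-number correlations of deviations ran from -0.25 to 0.40, with 4 of 9 over 0.3, and 2 of 9 numbers correlated best with their own. The unnumbered vehicle libraries, whose column number no label holds, had no same-number correlation and were outside the block. The loaded unnumbered library was still among the candidates for the best match of each vehicle number. The main loading tests treated the 2 limbs as independent. With the replicate block, loading called 0 of 18182 genes with vehicle and 0 of 21184 with DEX, and the interaction 0 of 22390. In DEX against vehicle, equal numbers belong to different mice, so the block there does not address pairing. With it, 1 member was still called in unloaded tibiae, and over all genes 148 higher and 372 lower, against 564 and 787. In loaded tibiae the block gave 1537 and 789, against 2554 and 1652, and the background covariate gave 4 and 25.

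Sign changes concerned values that were not called. C1qb in unloaded tibiae became 0.0194 with the block and 0.0154 with the shared-number libraries. In loaded tibiae with the covariate, Mrc1 became 0.17 and C1qa 0.42. With Csf1r as denominator, the ratio of Mrc1 became -0.0471 (unloaded) and that of Mertk -0.0456 (loaded), and the interactions of the ratios of Cd163 and Mrc1 became 0.10 and 0.0609. The ratio interaction of Ly6c2 became -0.0184 with all libraries, and that of Cd163 became 0.0458 with both DEX replicate 4 libraries out. With libraries left out in turn, Adgre1 ran from -0.18 to 0.0212 and C1qa from -0.0633 to 0.24 in unloaded tibiae, and Cd163 from -0.0285 to 0.32 in loaded tibiae. The ratio interactions ran from -0.22 to 0.0458 for Cd163, -0.19 to 0.0044 for Mrc1 and -0.13 to 0.39 for Ly6c2. The causes were not tested, except that the shared-number fits used fewer libraries. At 1 to 21 counts per library, Marco is limited by depth.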
